A study of Mus musculus with 8 samples.

Results

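Atp6ap2 (GeneID 70495, RefSeq NM_027439.4) lies on mouse chromosome X from 12587759 to 12617051 on mm10, a gene body of 29.3 kb, and it holds a run of closely spaced SMAD4 ChIP-seq peaks in MS1 endothelial cells. The peaks described here were selected by position: every peak of the authors' 2 lists whose summit fell inside the gene body or within 10 kb of it. This gave 11 peaks of 5466 in all, 6 in the BMP9/10-stimulated list and 5 in the unstimulated list, and all 11 summits were inside the gene body. The gene itself was chosen from the measured peaks, because its peaks were dense and mostly narrow and because its strongest peak had the highest stimulated fold enrichment, so its peak number, widths, heights and enrichments are given as a description and carry no test.

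ATP6AP2 is a single-pass membrane protein that works as an accessory subunit of the vacuolar proton pump (V-ATPase), which acidifies lysosomes and other vesicles. It is also known as the (pro)renin receptor, because it binds renin and its precursor, and it links the Wnt co-receptor LRP6 to the proton pump. SMAD4, the protein that was immunoprecipitated, is the shared partner of the SMADs that BMP and TGF-beta receptors activate. BMP9 and BMP10 are blood-borne ligands that signal to endothelial cells through the receptor ALK1.

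MS1 is an established mouse endothelial line, and no mutation or transgene is named in the labels. The 4 groups were SMAD4 immunoprecipitates (IP) from cells given BMP9/10 protein at 1 ng/mL after 24 h without serum, the matching input DNA, SMAD4 IP from cells given fresh medium after the same starvation, and the matching input DNA, with 2 libraries each. Both stimulated IP titles include the letters KD, whose meaning is not stated in the labels, so values are those of the libraries labelled as stimulated. The authors merged the 2 IP libraries and the 2 input libraries of each condition before calling peaks, so no value has a replicate error and no difference below has a replicate check. The lists rest on 41044888 stimulated and 52971023 unstimulated IP tags and hold 4333 and 1133 peaks. The files give no expression values, so the endothelial identity of the cells was not checked.

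No peak lay at the promoter of Atp6ap2. The sequence from 250 bases before to 50 bases into the gene (RefSeq, GRCm38.p6, the assembly behind mm10, chrX:12587509-12587808, plus strand) is shown because the peaks of this gene start well beyond it, and it overlapped 0 stimulated and 0 unstimulated peaks. Capitals mark the SMAD half-site letters AGAC, or GTCT on the opposite strand.

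Atp6ap2 promoter: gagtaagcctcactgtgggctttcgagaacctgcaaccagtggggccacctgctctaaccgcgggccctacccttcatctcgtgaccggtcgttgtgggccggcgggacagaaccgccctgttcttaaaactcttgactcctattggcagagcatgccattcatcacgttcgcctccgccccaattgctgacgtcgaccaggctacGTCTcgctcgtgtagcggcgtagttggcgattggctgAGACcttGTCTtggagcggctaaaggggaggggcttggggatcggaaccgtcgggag

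The half-site letters occurred 3 times in this window, and 88% of 32851 RefSeq promoter windows of the same length hold them at least once. The longer CAGACA, or TGTCTG on the opposite strand, which contains the half-site, was in 21% of the windows and 0 times here. The GC-rich SMAD element GGCGCC, the same on both strands, was in 11.9% of the windows and 0 times here. Of all these windows, 2.23% overlapped a stimulated and 0.426% an unstimulated peak.

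The peaks fell into a stretch of inner ones, between 102 and 295 bp wide, and a single wide one near the 3′ end of the gene. From the gene start onward, the stimulated summits lay at 7.10, 8.45, 17.4, 19.2, 21.2 and 28.8 kb, and the unstimulated summits at 7.10, 8.42, 17.5, 21.2 and 28.5 kb. The 2 summits at about 7.10 and 8.45 kb made a close couple, 1.34 kb apart in the stimulated and 1.32 kb in the unstimulated list. A gap of 8.98 kb (stimulated) or 9.03 kb (unstimulated) followed, and then the summits in the middle of the gene, which were 1.79 and 1.94 kb apart in the stimulated list. The median distance between neighbouring summits was 1.94 kb in the stimulated list and 5.51 kb in the unstimulated list, which lacks the summit at 19.2 kb. In total the peaks covered 1801 bp (6.15%) of the gene body in the stimulated list and 1788 bp (6.10%) in the unstimulated list.

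**Figure D1:**
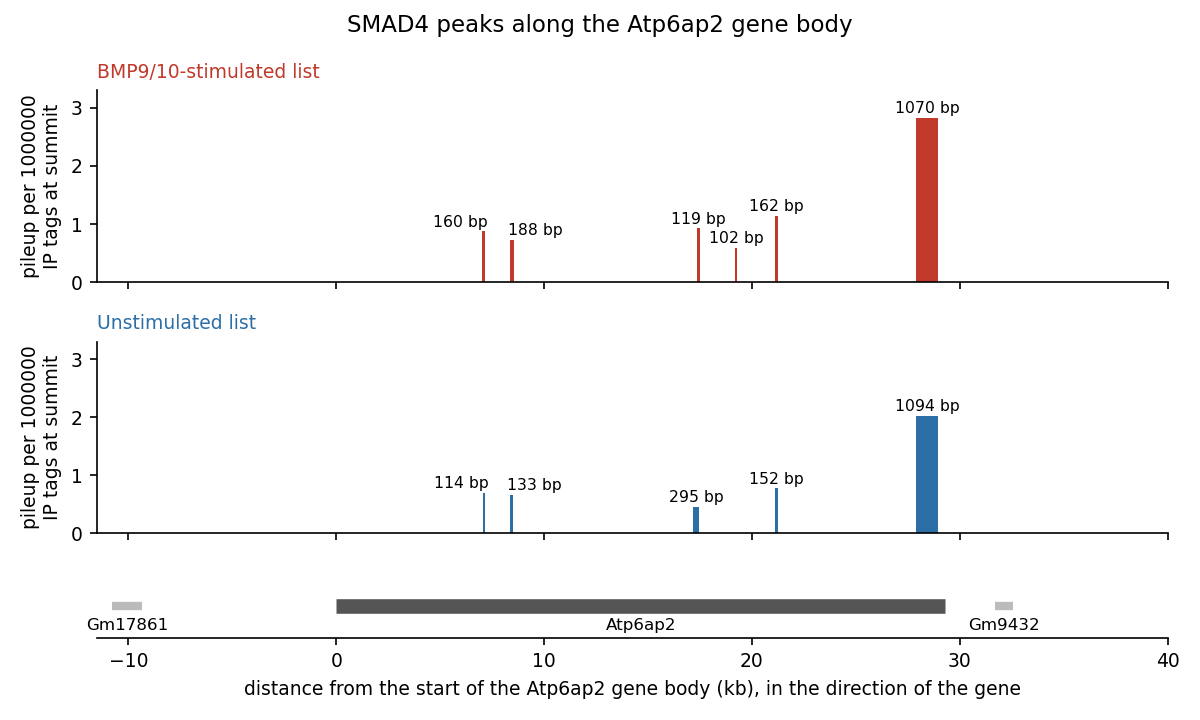
SMAD4 peaks along Atp6ap2, with the distance from the start of the gene body in kb on the x axis and the summit pileup per 1000000 IP tags on the y axis; each bar spans the peak's width, which is printed above it, for the stimulated (top) and unstimulated (middle) list, and gene bodies are drawn at the bottom. Inner peaks stand at matching places in both lists, the stimulated peak at 19.2 kb has no unstimulated counterpart, and in each list the gene's widest and tallest peak lies near its 3′ end.

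Width separated the last peak from the others. The 5 inner stimulated peaks were 160, 188, 119, 102 and 162 bp wide, and the peak near the 3′ end was 1070 bp wide. In the unstimulated list the inner peaks were 114, 133, 295 and 152 bp wide and the last one 1094 bp. Under 200 bp, the width below which a peak is called narrow here, there were 5 of 6 stimulated and 3 of 5 unstimulated peaks, beside 47.5% and 57.9% of the whole lists. Narrow peaks are therefore common in these data, and under 150 bp there were 2 of the 6 stimulated peaks at Atp6ap2. The peak of 1094 bp was the widest of the unstimulated list, whose next widest peak was 814 bp, and the peak of 1070 bp was the 4th widest of the stimulated list, where 4 peaks reached 1000 bp.

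Pileup, the number of tags extended to 100 bp that cover a summit, was scaled to depth and is given per 1000000 IP tags. The peak at 7.10 kb (chromosome X, 12594768 to 12594927 in the stimulated list and 12594821 to 12594934 in the unstimulated list) had a pileup of 0.877 in the stimulated list, against 0.698 in the unstimulated list. The peak at 8.45 kb (12596112 to 12596299 stimulated, 12596114 to 12596246 unstimulated) had 0.731 in the stimulated list, against 0.661 in the unstimulated list. The list medians were 0.707 (stimulated) and 0.698 (unstimulated). Among stimulated peaks under 200 bp, 91.3% had the same pileup as the peak at 7.10 kb or a lower one, and 78.4% as the peak at 8.45 kb or a lower one.

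The peak at 17.4 kb (12605134 to 12605252 stimulated, 12604933 to 12605227 unstimulated) had a pileup per 1000000 IP tags of 0.926 in the stimulated list, against 0.453 in the unstimulated list. It was among the lower peaks of the unstimulated list, where 9.80% of the peaks had the same pileup or a lower one. The peak at 21.2 kb (12608849 to 12609010 stimulated, 12608849 to 12609000 unstimulated) had 1.15 in the stimulated list, against 0.774 in the unstimulated list. The peak near the 3′ end (12615656 to 12616725 stimulated, 12615631 to 12616724 unstimulated) had 2.83 in the stimulated list, against 2.02 in the unstimulated list. It was the 7th highest pileup of the stimulated and the 9th highest of the unstimulated list. The peak at 19.2 kb (12606942 to 12607043), called only in the stimulated list, was the lowest of the 6 there, with a pileup of 24 tags or 0.585 per 1000000 IP tags.

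**Figure D2:**
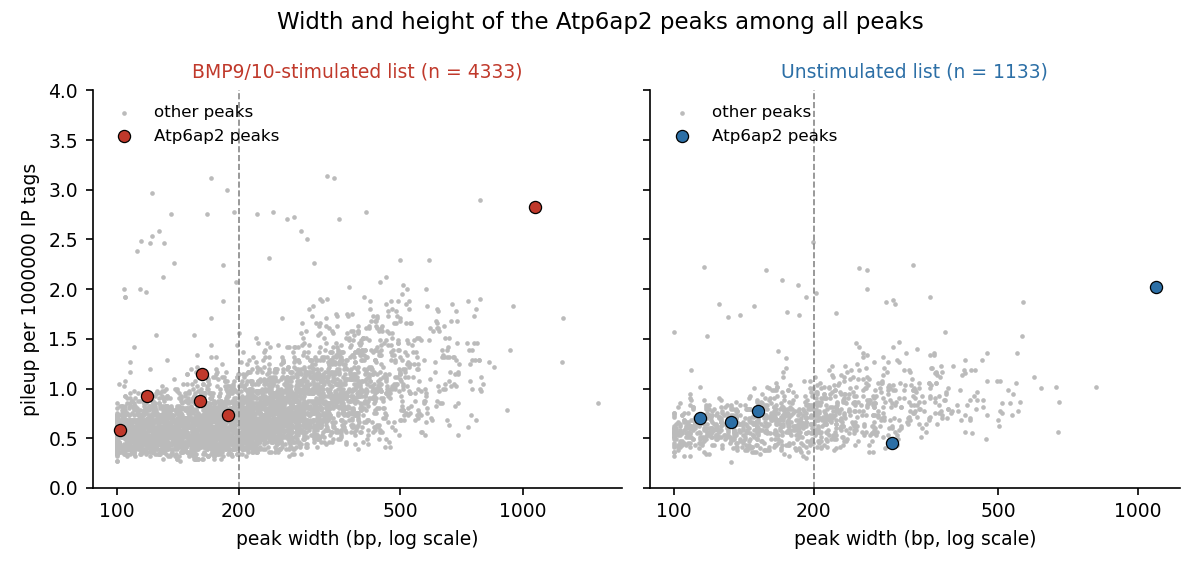
Peak width in bp (x axis, log scale) against pileup per 1000000 IP tags (y axis) for all 4333 stimulated (left) and 1133 unstimulated (right) peaks, with the Atp6ap2 peaks as large coloured points and a dashed line at 200 bp. All inner Atp6ap2 peaks lie left of the dashed line except the unstimulated one of 295 bp, while the peak near the 3′ end lies at the upper right, at a width of 1070 bp (stimulated) and 1094 bp (unstimulated) with a pileup of 2.83 and 2.02.

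The deposited fold enrichment, the authors' ratio of IP pileup to local input background with 1 added to each, was above the list median at all 11 Atp6ap2 peaks, at some of them only slightly. In order along the gene it was 4.63, 9.69, 11.8, 5.0, 8.00 and 24.9 in the stimulated list, with a median of 8.84 against a list median of 4.56. The peaks at 7.10 and 19.2 kb were near the middle of the stimulated list, where 52.3% and 63.4% of the peaks had the same value or a lower one. The unstimulated values were 5.43, 9.39, 6.25, 10.96 and 12.0, with a median of 9.39 against a list median of 4.0. The peak near the 3′ end ranked first of the stimulated list and 4th of the unstimulated list, where the narrow peak at 21.2 kb was 6th and the one at 8.45 kb 14th. At 8.45 kb, fold enrichments of 9.69 (stimulated) and 9.39 (unstimulated) came with pileups close to the list medians.

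Local background, the tags expected over 100 bp, was worked back from the fold enrichment. It was set against the genome-wide level, computed from the IP tags, of 2.19 tags (stimulated) and 2.83 tags (unstimulated). At 8.45 kb it was 1.00 times the genome-wide level in both lists, and at 17.4 kb 1.05 times in the stimulated and 1.06 times in the unstimulated list. At 7.10 kb it was 3.19 times in the stimulated and 2.12 times in the unstimulated list. At 21.2 kb the values were 2.28 in the stimulated and 1.00 in the unstimulated list, and at the 3′ end 1.69 in the stimulated and 2.82 in the unstimulated list. The unstimulated backgrounds at 8.45 and 21.2 kb equalled the genome-wide level itself, and no Atp6ap2 peak had a lower one. Those values of 1.00 are therefore not a separate reading of the input. The background of the stimulated peak at 19.2 kb was 1.82 times the genome-wide level. The medians over the Atp6ap2 peaks were 1.75 (stimulated) and 1.06 (unstimulated), beside 2.46 and 2.89 over all peaks of the lists.

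The 2 lists placed most Atp6ap2 summits at nearly the same bases. Of the 6 stimulated peaks, 5 overlapped an unstimulated one by at least 1 bp, against 24.9% of all stimulated peaks, and all 5 unstimulated peaks overlapped a stimulated one, as did 95.9% of the unstimulated list. Recurrence in both lists was known when the gene was picked. The summits of the 5 pairs lay 2, 25, 18, 4 and 320 bp apart, in order along the gene. The median of 18 bp compares with 31 bp over all 1078 pairs of shared peaks outside mitochondrial DNA, each peak used once. Where both peaks were under 200 bp, the median was 4 bp over 3 Atp6ap2 pairs and 28 bp over 136 pairs. For the inner pairs, in order, 4.45%, 42.8%, 31.6% and 8.26% of all pairs had the same or a smaller distance. Only the wide peak near the 3′ end had a far larger distance than most pairs, and 99.7% of all pairs had the same or a smaller one.

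Some peak edges also coincided, and others did not. At 21.2 kb both lists began at base 12608849, a difference of 0 bp, and ended 10 bp apart. At 8.45 kb the starts differed by 2 bp and the ends by 53 bp, and at 7.10 kb the starts by 53 bp and the ends by 7 bp. The wide peak ended 1 bp apart in the 2 lists, 326 bp (stimulated) and 327 bp (unstimulated) before the end of the gene body, while its starts differed by 25 bp. At 17.4 kb the starts differed by 201 bp and the ends by 25 bp, because the unstimulated peak of 295 bp reached further towards the gene start. Its summit was 17 bp from its other end, inside the narrower stimulated peak.

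At least 1 edge within 10 bp was found at 4 of the 5 Atp6ap2 pairs, against 16.2% of all 1078 pairs. Narrow peaks match more often on that measure, with 33.1% of the 136 pairs whose peaks were both under 200 bp, and 3 of 3 such pairs at Atp6ap2. Both edges matched at 1 of the 5 Atp6ap2 pairs and at 1.02% of all pairs. Where both peaks were under 200 bp, both edges matched at 1 of 3 Atp6ap2 pairs and at 3.68% of the 136 pairs. The edge measure was picked after the positions had been seen, and 5 pairs from a single gene are not independent.

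Pileup per IP tag was higher in the stimulated list at all 5 Atp6ap2 pairs, as it was at 98.4% of all shared pairs. The ratios, stimulated over unstimulated, were 1.26 (95% counting interval 0.771 to 2.04) at 7.10 kb, 1.11 (0.656 to 1.85) at 8.45 kb and 2.04 (1.19 to 3.56) at 17.4 kb. They were 1.48 (0.952 to 2.31) at 21.2 kb and 1.40 (1.07 to 1.84) at the 3′ end. The 2 summits at the 3′ end lay 320 bp apart, so that ratio compares different bases of the wide peak. The interval lay above 1 at 2 of the 5 pairs, at 17.4 kb and at the 3′ end, beside 36.6% of all shared pairs. The gene was chosen from these same peaks, so this count is a description and not a test. At 17.4 kb the unstimulated summit held 24 tags. Where both peaks were under 200 bp, the interval lay above 1 at 0 of 3 Atp6ap2 pairs and at 18.4% of 136 pairs. The median ratio of 1.40 was just under that of all pairs, 1.47 (interquartile range 1.29 to 1.68). Among pairs with both peaks under 200 bp, the median ratio was 1.26 over the 3 at Atp6ap2 and 1.33 over all 136. With only Atp6ap2 pairs whose summits were at most 50 bp apart, the median was 1.37. The intervals are exact binomial ones on the 2 pileups and hold counting error alone, not replicate error.

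**Figure D3:**
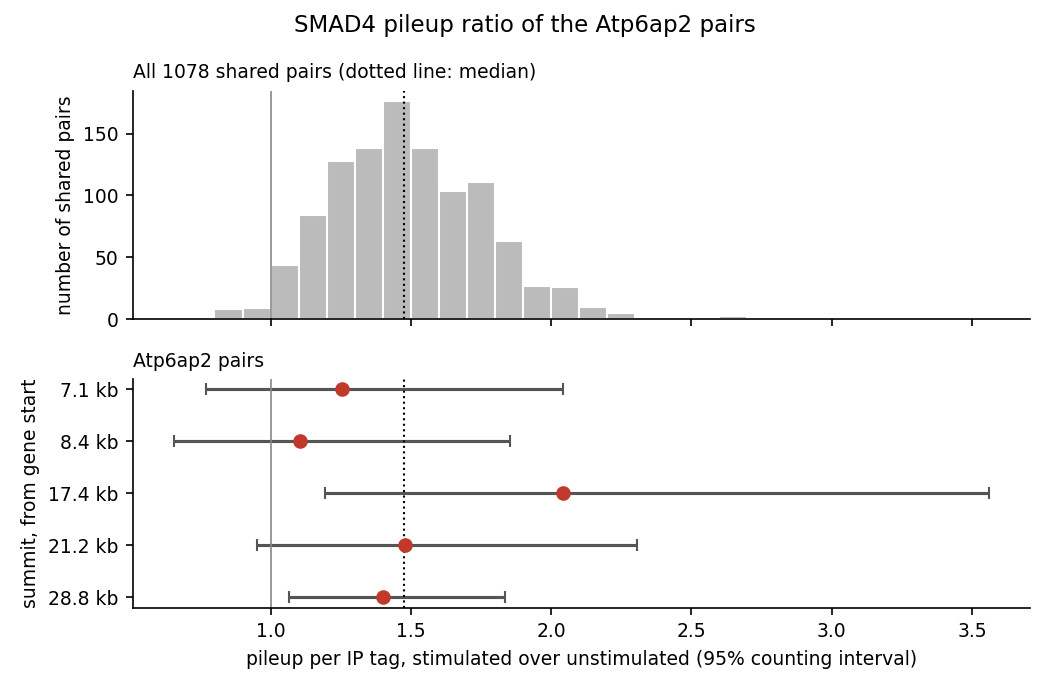
Ratio of pileup per IP tag, stimulated over unstimulated (x axis), as a histogram over all 1078 shared pairs (top, number of pairs) and for the 5 Atp6ap2 pairs by summit position (bottom, points with 95% counting intervals); the dotted line is the median of all pairs, 1.47, and the grey line marks 1. The Atp6ap2 ratios run from 1.11 to 2.04 and their intervals spread around the general median.

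Fold enrichment did not follow the pileup at every pair. It was lower in the stimulated list at 7.10 kb, 4.63 against 5.43 in the unstimulated list, and at 21.2 kb, 8.00 in the stimulated list against 10.96 in the unstimulated list. At both places the stimulated local background was higher relative to the genome-wide level, by 1.51 and 2.28 times. The unstimulated background at 21.2 kb was the genome-wide level itself. At the 3′ end the stimulated fold enrichment of 24.9 was 2.07 times the unstimulated value of 12.0, with a local background 0.597 times as high. These values were taken at summits 320 bp apart, so they compare different bases of the wide peak. The median ratio of fold enrichments was 1.03 over the 5 pairs and 1.40 over all shared pairs.

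Summits were packed closely in Atp6ap2. Its 6 stimulated summits gave 0.205 per kb, the highest density of the 43 protein-coding genes that held at least 4 stimulated summits, whose median was 0.0225 per kb. The next was Kdm6b, which encodes a histone H3K27 demethylase, with 4 summits and 0.183 per kb, close to Atp6ap2. Then came the integrin beta 3 gene Itgb3 with 6 summits and 0.0960 per kb, Sh3bp5 with 0.0788, Smad4 itself with 0.0725 and Ccnjl with 0.0687. Elk3, an ETS-family transcription factor gene, had 0.0628 per kb, the calcium channel gene Itpr3 0.0613, the netrin receptor gene Unc5b 0.0580 and Bicral 0.0542. In the unstimulated list only 2 of 21887 protein-coding genes held 4 summits or more. These were Atp6ap2, with 0.171 per kb, and Zmiz1, with 5 summits in 209 kb or 0.0239 per kb. Zmiz1 is named here after its value was seen.

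**Figure D4:**
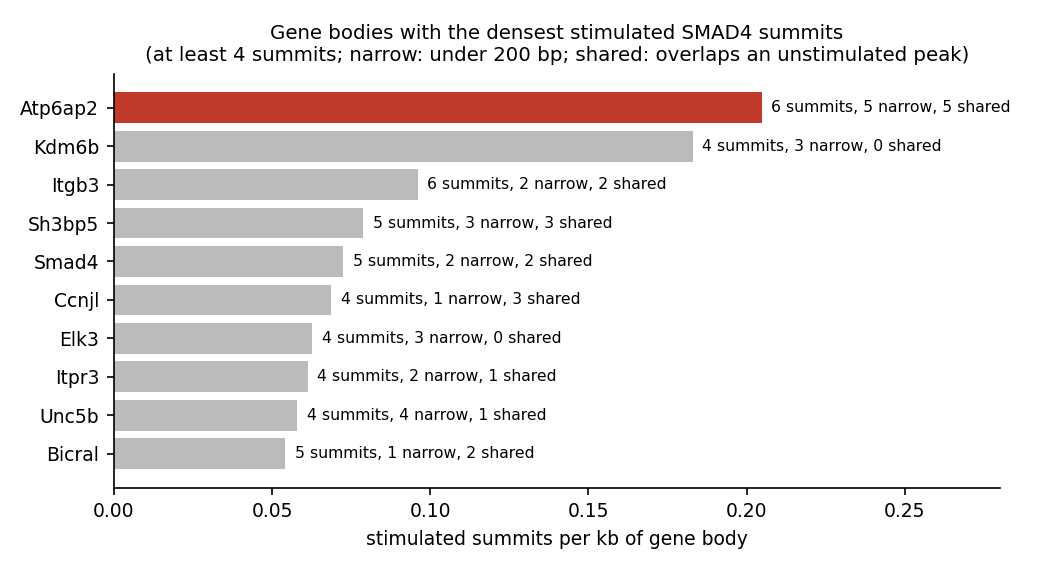
Stimulated SMAD4 summits per kb of gene body (x axis) for the 10 densest protein-coding genes among those with at least 4 summits, with the number of summits, of peaks under 200 bp and of peaks that overlap an unstimulated peak printed beside each bar. Atp6ap2 leads with 0.205 per kb and 5 of 6 peaks shared, and Kdm6b follows with 0.183 per kb and 0 of 4 shared.

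Over the other 9 of the 10 densest genes, 21 of 41 peaks were narrow (51.2%), close to the 47.5% of the whole list, from 1 of 4 at Ccnjl and 1 of 5 at Bicral to 4 of 4 at Unc5b. Of these 41 peaks, 14 overlapped an unstimulated one (34.1%, beside 24.9% of the whole list). Sharing was most frequent at Ccnjl, with 3 of 4, and Sh3bp5, with 3 of 5, and Kdm6b and Elk3 shared 0 of 4 each. Among the 43 genes, 14 had more narrow than wider peaks. Also among the 43, 4 genes, Atp6ap2 included, shared all but 1 of their peaks with the unstimulated list, and 0 shared all. The highest fold enrichment within those 9 genes was 9.08, at Smad4, and the widest peak was 493 bp, at Itpr3.

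Along the gene, the strongest Atp6ap2 peak was near the 3′ end and not near the start. Strand was known for 1242 of the 1549 protein-coding genes with a stimulated summit in the body. Of these, 27.7% had a summit within the first 1 kb of the gene body and 2.09% (26 genes) within its last 1 kb. Summits outside the gene body were not counted in these shares. Atp6ap2 had 0 within 1 kb of its start and had its strongest summit 0.492 kb (stimulated) and 0.812 kb (unstimulated) before its 3′ end. In the unstimulated list the shares were 19.3% and 3.51% (12 genes) of 342 genes. Among the 32 dense genes with a known strand, Atp6ap2 was the sole one with a stimulated summit inside the gene body and within 1 kb of the 3′ end. No exon table was used here, so the positions were not compared with exons.

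No other called peak lay near the gene. The nearest stimulated peaks outside the 10 kb limit lay 458 kb before the gene (pileup 0.414 per 1000000 IP tags) and 227 kb after it (0.658). The nearest unstimulated one lay 845 kb after it (0.868). No summit fell in the other genes within 100 kb, which are the pseudogenes Gm17861 and Gm9432, Gm4984, 1810030O07Rik, the lncRNA gene Gm52422 and Med14, a Mediator subunit gene. Atp6ap2 held 6 of the 61 stimulated peaks and 5 of the 14 unstimulated peaks of chromosome X.

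Other genes of the proton pump had SMAD4 peaks at a share near that of all genes. Of 32 genes for V-ATPase subunits and their assembly or regulatory partners, 3 had a stimulated summit in or within 10 kb of the gene body, or 9.38%, beside 12.7% of all protein-coding genes. In the unstimulated list 0 of the 32 did, beside 3.51% of all genes. Atp6v0a1, a membrane-sector subunit gene of 54.3 kb, had 3 narrow stimulated peaks of 100, 106 and 100 bp with fold enrichments of 4.91, 5.10 and 4.71, of which the first lay 1.10 kb before the gene, the next inside it and the last 0.492 kb beyond its end. Atp6v1g3, which encodes a subunit of the soluble sector, had a stimulated peak of 108 bp (4.50) inside the gene. Rnasek had a stimulated peak of 319 bp (4.50) at 7.79 kb from its gene body. None of these 5 peaks overlapped an unstimulated one. At a −log10 q of at least 10, the Rnasek peak alone was left.

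Genes of the renin system, of LRP6 signalling and cell polarity, and of the proteases that cut ATP6AP2 had peaks about as often as genes in general. Of 16 such genes 2 had a stimulated summit (12.5%, the background share being 12.7%) and 1 an unstimulated one (6.25%, beside 3.51%). Pard3, a cell polarity gene, had a peak with a fold enrichment of 9.02 in the stimulated list, against 4.67 in the unstimulated list, 85.6 kb from the gene start. Adam19, which encodes a metalloprotease, had stimulated peaks of 3.33 and 3.25 inside the gene, without unstimulated counterparts. The genes for renin, angiotensinogen, the angiotensin receptors and LRP6 had 0 peaks in either list within 10 kb.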

How the data were processed

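SMAD4 ChIP-seq peak lists of MS1 cells were used as deposited. Per the file headers, the authors called narrow peaks with MACS2 2.1.0.20140616 on merged IP against merged input libraries, with at most 1 tag per position, tags extended to 100 bp, the larger set sampled down to the smaller and a q cutoff of 0.01. The submitters' processing notes name mm10. For the aligner, no name is given in the sources used here. Per the file headers, 59057559 stimulated and 72688953 unstimulated input tags remained after filtering, and the band width setting was 200 for the stimulated and 300 for the unstimulated list.

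The authors deposited pileup as a coverage signal not scaled to depth, −log10 p-value and −log10 q-value of IP against background, and fold enrichment as a linear ratio. Tags of 140 bp (stimulated) and 146 bp (unstimulated), per the file headers, were longer than the extension, so widths and pileups describe 100 bp pieces. Here pileup was divided by IP tags, overlaps of at least 1 bp were paired 1 to 1 by closest summits, and genes came from RefSeq GRCm38.p6 (pandas 2.3.3, scipy 1.17.1). Strand came from the RefSeq promoter table. Code was tested on simulated data. The gene, the lists and the measures were chosen with earlier results of these data known. Named genes were Atp6ap2, genes within 100 kb of it, members of the 2 lists with a peak within 10 kb, and the 10 densest gene bodies with at least 4 stimulated summits. The planned comparison with exons was not run.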

Additional observations from a re-analysis of the deposited data

How the results depend on the processing

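Of 24 alternative settings over 9 results, 19 kept the value. A count or density was kept if it stayed within 1.5 times. The median pileup ratio was kept if it stayed within the counting interval of 1 pair. That pair, at the 3′ end, has the median ratio itself (interval 1.07 to 1.84). The 6 stimulated and 5 unstimulated Atp6ap2 peaks were the same in number with a limit of 0 or 50 kb and with any base of the peak counted, and a −log10 q of at least 10 left 5 and 4. Divided by the median ratio of all shared pairs, the median pileup ratio of 1.40 became 0.949, and with pileup taken over the local background it became 1.03. The 5 stimulated Atp6ap2 peaks with an unstimulated counterpart became 4 with a reciprocal overlap of at least 50%. They also became 4 with summits at most 50 bp apart, and with a −log10 q of at least 10 in both lists. With narrow defined as under 150 bp, 2 stimulated Atp6ap2 peaks were narrow. At a −log10 q of at least 10, 1 V-ATPase gene (Rnasek) and 1 renin and Wnt partner gene (Pard3) kept a stimulated peak. An edge tolerance of 5 bp, chosen after seeing the data, gave 3 of 5 Atp6ap2 pairs, beside 8.63% of all pairs, and 20 bp gave 4 of 5, beside 31.4%.

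No paired analysis was possible because the authors merged the libraries of each condition before peak calling, and no library was left out for the same reason. The summits carry 24 to 116 tags in the stimulated and 24 to 107 tags in the unstimulated list, which sets the width of the counting intervals. A peak that was not called, such as an unstimulated one at 19.2 kb, did not pass the authors' peak calling. The lists give no signal where no peak was called, so this does not show that SMAD4 was absent there.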
